A study of Gallus gallus with 2 samples.

Results

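Genes that build vesicle coats, sort cargo in endosomes and fuse membranes were followed in the intraepithelial lymphocytes of the gut of broilers, sampled on day 14, with and without direct fed microbials (DFM), live bacteria mixed into the diet. The members were the array probes whose design name begins with one of the family names SNX, VPS, SEC, COP, STX, VAMP, SNAP, VTI1, AP1 to AP4, CLT, EXOC, COG, TRAPPC or CHMP, plus 1 probe of the endocytic adaptor gene SH3BP4 chosen by its probe name. They came to 63 genes among the 40231 names on the array and to 75 of its 42034 probes, 9 genes having several probes. Of the 75 probes, 61 entered the test because at least 1 of the groups was, in both replicates, well above background, and 14 did not. Apart from SH3BP4, a probe became a member by its gene name, but the families were chosen with earlier results of these data known. SH3BP4 was added with its ratio known, so its ratio is given as a description.

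The study hybridised total RNA of the DFM group and of untreated controls, extracted with Trizol, together on each of 2 two-colour Agilent arrays on 1 slide. DFM RNA carried Cy5 on the array of replicate 1 and Cy3 on that of replicate 2. The labels describe the second array as a biological replicate and also as the dye exchange of the first, and the number of birds behind each RNA is not given. The p-values below therefore rest on 2 arrays only, whose differences may be technical. The limma test also took each probe's variance mostly from a prior shared by all tested probes (7.52 prior and 1 residual degrees of freedom).

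Transport vesicles form when a protein coat bends a membrane: COPII coats leave the endoplasmic reticulum, COPI coats return from the Golgi, and clathrin with its adaptors works at the cell surface, the trans-Golgi network and endosomes. Cargo that reaches endosomes is sent back by sorting nexins and retromer or drawn into internal vesicles for breakdown by the ESCRT complexes, and tethers and SNARE proteins then dock and fuse vesicles with their target. In cytotoxic lymphocytes, which make up much of the intraepithelial population, this machinery also matures and releases lytic granules and recycles surface receptors. Gene roles given below are those known from yeast and mammals.

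Relative to the average probe of the array, ESCRT genes held 4 and sorting nexin genes 3 of the 15 member probes that were lower with DFM, and SH3BP4 was the member that was higher. At an adjusted p under 0.05 (limma, Benjamini-Hochberg over all 18242 tested probes), 15 of the 61 tested probes (24.6%) were called lower. SH3BP4, added with its ratio known, was the 1 called higher, and 45 were not called. Across all tested probes, 10.5% were called lower and 12.1% higher (22.6% in all), and among the 6594 tested probes that carry a RefSeq gene symbol the shares were 14.1% and 8.13% (22.2% in all). The ratio was negative on both arrays for 35 members, positive on both for 9 and of opposite sign for 17. Over all 18242 tested probes these counts were 6972, 6890 and 4380. Among the 6594 with a RefSeq symbol they were 3067, 1951 and 1576. The median member log2 ratio was -0.14, or -0.19 on the array of replicate 1 and -0.15 on that of replicate 2, beside a median of 0.00 over all tested probes and of -0.07 over those with a RefSeq symbol. The 15 lower calls were 1.35- to 1.68-fold, with adjusted p between 0.00457 and 0.0435.

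**Figure D1:**
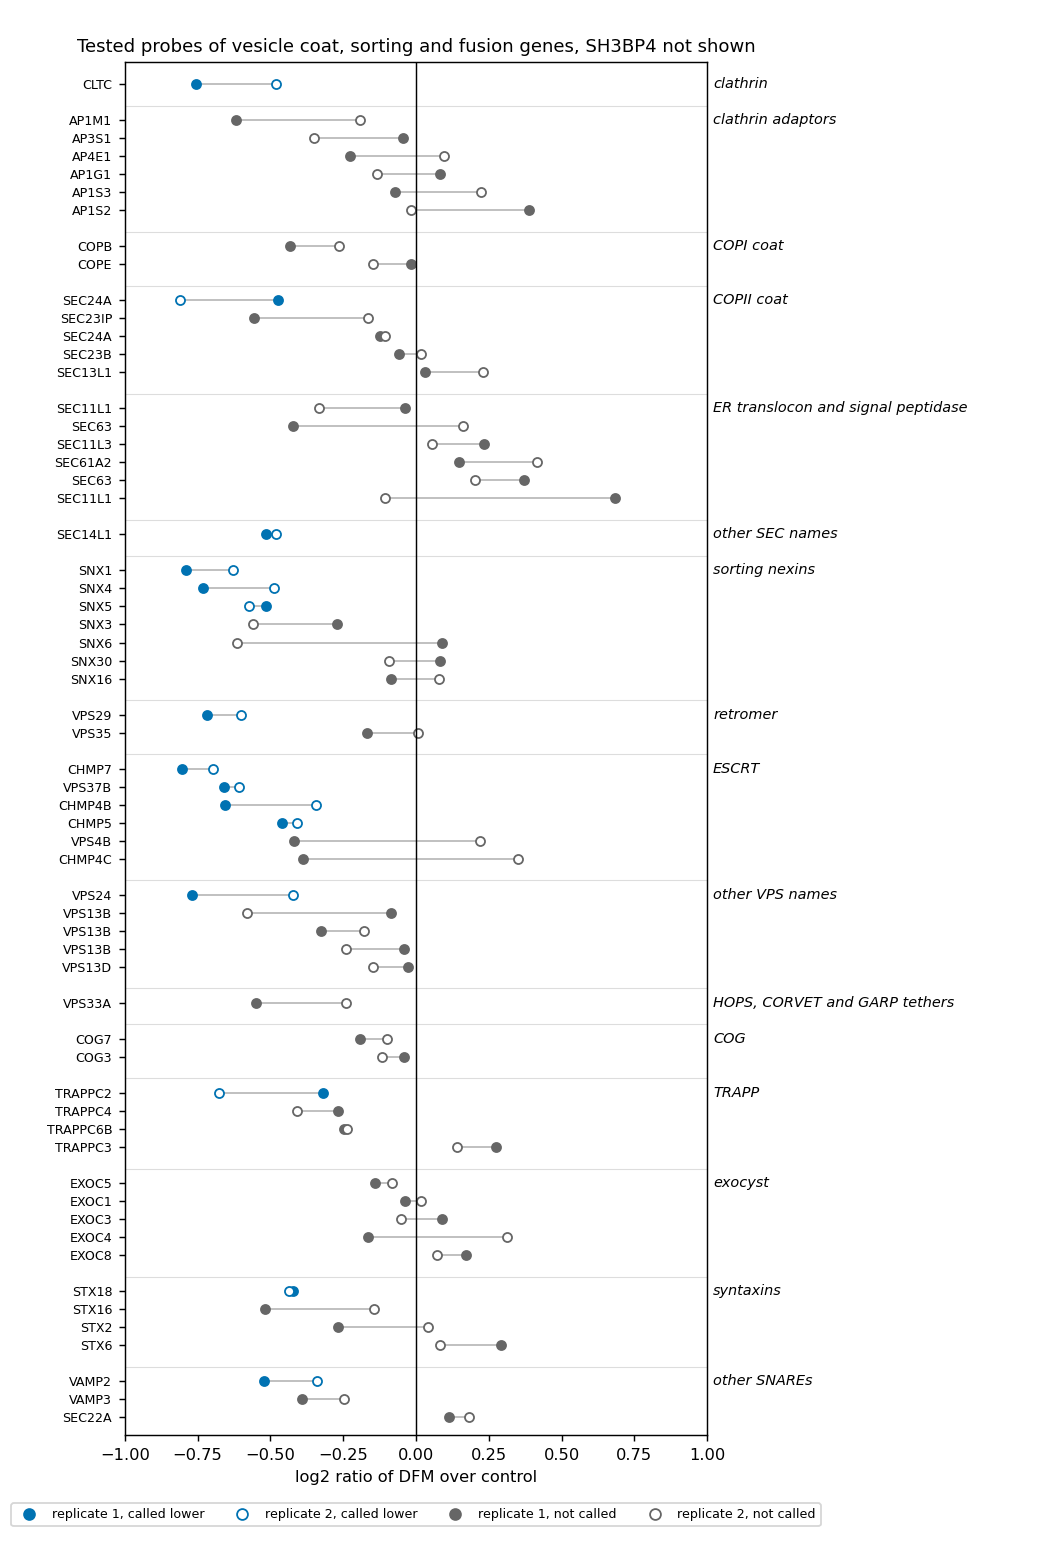
Log2 ratio of DFM over control (x axis) of the 60 tested member probes other than SH3BP4, grouped by role, with replicate 1 as filled and replicate 2 as open points and called probes in blue. The 15 called probes lie left of 0 on both arrays, 4 of them in the ESCRT group (6 tested) and 3 among the sorting nexins (7 tested). Among all tested probes, 10.5% were lower.

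These directions are relative to the array average. The 10 spike-in RNAs added to both samples had a median log2 ratio of -2.12 (from -2.32 to -1.88), so the average probe stood 2.12 above them. Set to the spike-in RNAs, a scaling chosen after seeing the data, all 61 tested members were called higher, as were 18223 of the 18242 tested probes, and 3 probes were called lower. Under median centring of each array in place of loess, 0 members were called lower by limma (0 also at an unadjusted p under 0.05) and 1 higher, against 8 and 109 of all probes. With the scanner software's own ratio, 3 of 61 members were lower and 1 higher, against 951 and 1179 of all 18242 tested probes. Of the 15 lower calls, 2 remained, CHMP7 and VPS37B. With a background offset of 0 in place of 50, 10 members were lower and 1 higher, against 1839 and 2292 of all tested probes. CLTC, VPS24, SNX5, TRAPPC2, CHMP4B, CHMP5 and VAMP2 were then no longer called. The sign of all 15 was negative in each of these 3 settings, which reprocess the same spots that gave the calls. At an unadjusted p under 0.05 by the main limma test, 23 members were lower and 1 higher. The share of all tested probes at this unadjusted threshold is not given here, so these counts cannot be read as particular to the members.

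**Figure D2:**
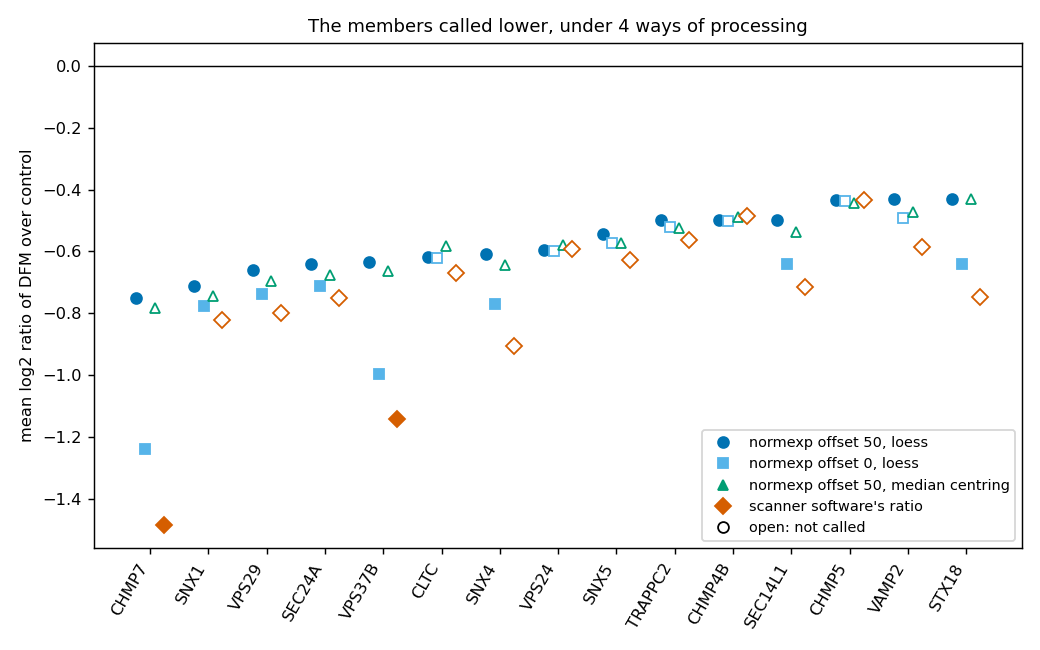
Mean log2 ratio of DFM over control (y axis) of the 15 members called lower, under 4 ways of background correction and normalisation, with filled points for calls and open points for none. All 15 stay below 0 in each, while 8 are called with an offset of 0, 0 after centring on the median and 2 in the scanner software's ratio.

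Markers of the cells in the samples moved with the same contrast. All 10 tested exocrine pancreas genes were higher with DFM, and the trypsinogen genes PRSS2 and PRSS3 stayed at background. Summed linear levels were 21715 to 22345 with DFM against 1273 to 1284 in the control. CEL, PNLIPRP1, CPB1, CTRC and CTRL passed the filter only through the DFM group, so the count of 10 was partly set by the filter. Of 11 tested T cell and cytotoxic lymphocyte probes, 3 were lower (GZMA, CD3D, CD244) and 1 higher (CD5), with summed levels of 57470 to 64314 against 126987 to 135885, and PTPRC was not well above background. Of 17 tested epithelial probes of 13 genes, 9 were lower and 1 higher, and SI and FABP2 were not well above background. Several of the lower probes were of APOB, so lower genes were fewer than lower probes. ANPEP had a lower probe (-1.70) and a brighter one that was not called (0.37). The epithelial sums overlapped, at 571277 to 651962 with DFM and 573465 to 669834 in the control. The median log2 ratio was -0.63 over the epithelial probes, the value of an APOB probe, and -0.33 over the T cell and cytotoxic lymphocyte probes. Sums weigh the brightest probes most, here an ANPEP probe, CDX2 and FABP1 for the epithelium and GZMA and CD3D for T cells. Of 5 tested B and plasma cell probes, 1 was lower, with sums of 4479 to 4975 against 5828 to 6347. CD3D and GZMA were well above background in every channel, and so were the epithelial genes VIL1 and CDH1. In such mixed samples, fewer cells of a type and less RNA per cell cannot be told apart, and the part of these shifts in the members' ratios was not tested.

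Levels below are normalised log2 signals, given as control and then DFM for replicates 1 and 2, and they compare groups within 1 probe only. Positions are those of the probe in the array design, on the galGal2 build per the file headers; a listed span over 60 bases is copied from the design. No gene annotation of that build was used, so the exon or untranslated region hit by a probe is not given. Errors are the moderated standard error (SE) of limma over n = 2 arrays.

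The ESCRT complexes bud vesicles into endosomes and cut membrane necks. Among the member groups they held the most lower calls, 4 of 6 tested probes, with a group median of -0.47. Of all tested probes 10.5% were lower, and of those with a RefSeq symbol 14.1%. In the further set matched by RefSeq symbol, 2 of 4 tested ESCRT probes were lower. Of 11 tested sorting nexin probes there, 6 were lower and 1 higher, and the order of the groups was not tested. CHMP7, an ESCRT-III-like subunit known for resealing the nuclear envelope (chr22:1242997-1243056), measured 7.47 and 7.48 in the control and 6.67 and 6.78 with DFM. Its array ratios were -0.80 and -0.70, a mean of -0.75 (SE 0.125, n = 2), a 1.68-fold lower signal with an adjusted p of 0.00457 by limma. Both DFM values lay below both control values, and among the tested members this was the lowest ratio, except in the scanner software's ratio and the authors' table, where CHMP7 stood at -1.48 and a VPS13B probe at -1.59.

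VPS37B, an ESCRT-I subunit (chr15:5203965-5204024), went from 7.53 and 7.53 in the control to 6.87 and 6.93 with DFM, 1.55-fold lower (adjusted p = 0.00887, limma). CHMP4B, whose protein forms the main ESCRT-III filament (chr20:2007021-2007080), went from 12.12 and 11.90 to 11.47 and 11.56 (1.41-fold lower, adjusted p = 0.0314, limma). CHMP5, which acts late in ESCRT-III disassembly (chr2:85560076-85560135), went from 11.09 and 11.01 to 10.63 and 10.60 (1.35-fold lower, adjusted p = 0.0384, limma). In all 3 genes the groups did not overlap. The same held for all 15 members called lower and, in that direction, for 33.9% of all tested probes. Here and below, a lack of overlap is therefore no support beyond the call. The remaining tested genes of the group gave arrays of opposite sign. CHMP4C, a CHMP4B paralogue with a part in the abscission checkpoint, had ratios of -0.39 and 0.35 (mean -0.02, SE 0.177), and VPS4B, the ATPase that takes ESCRT-III apart, had -0.42 and 0.22 (mean -0.10, SE 0.166). VPS24 falls outside the group by its array name, but RefSeq calls it CHMP3, an ESCRT-III subunit. Its probe (chr4:85701016-85701659) read 12.48 and 12.20 in the control against 11.71 and 11.77 with DFM, 1.51-fold lower without overlap (adjusted p = 0.0174, limma). VPS25 and VPS37A did not exceed background in any channel.

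Sorting nexins, which bind endosomal phosphoinositides and shape recycling tubules, had 3 lower calls among 7 tested probes and a median of -0.42. The lower share was 10.5% of all tested probes and 14.1% of those with a RefSeq symbol, and the group was not tested against it. SNX1 and SNX5 encode partners in the membrane-bending dimer that works with retromer. For SNX1 (chr10:1355970-1356532) the control levels were 9.54 and 9.36 and the DFM levels 8.75 and 8.73. Its ratios of -0.79 and -0.63 averaged -0.71 (SE 0.127, n = 2), 1.64-fold lower at an adjusted p of 0.00611 by limma. SNX5 (chr14:16764772-16765846) read 9.95 and 9.87 in the control and 9.43 and 9.30 with DFM, 1.46-fold lower (adjusted p = 0.0167, limma). SNX4, a nexin of transferrin receptor recycling and autophagy (chr7:28794848-28798678), read 8.33 and 8.16 in the control and 7.60 and 7.68 with DFM (1.53-fold lower, adjusted p = 0.0131, limma). Control and DFM values stood apart for all 3 nexins. SNX3, a cargo adaptor of retromer, missed the threshold with ratios of -0.27 and -0.56 (mean -0.42, SE 0.134, adjusted p = 0.0558, limma), and was called lower (adjusted p = 0.0488, limma) when probes had to be well above background in all 4 channels. The probe named SNX6, which RefSeq assigns to SNX32, differed in sign between arrays (0.09 and -0.62). SNX16 and SNX30 had means of -0.00 and -0.01; for SNX16 the sign turned to 0.13 in the scanner software's ratio and the authors' table.

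Retromer, the coat that carries receptors from endosomes back to the Golgi or the surface, had 1 of its 2 tested core subunits called. Across all tested probes, 22.6% were called. VPS29, the subunit that holds regulators of the complex (chr15:5892219-5892278), had 9.21 and 9.11 in the control and 8.50 and 8.51 with DFM. The ratios of -0.72 and -0.60 gave a mean of -0.66 (SE 0.126, n = 2), 1.58-fold lower with an adjusted p of 0.00797 by limma, and the groups did not overlap. VPS35, the scaffold subunit, had ratios of -0.17 and 0.01 (mean -0.08, SE 0.128, adjusted p = 0.681, limma) and was not called. The difference between the subunits was not tested.

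Among the coats, the clathrin heavy chain gene CLTC (chr19:6873881-6873940) was lower with DFM. Its control levels of 13.32 and 12.98 compared with 12.56 and 12.49 with DFM. The mean ratio was -0.62 (SE 0.133, n = 2; arrays -0.76 and -0.48), 1.54-fold lower at an adjusted p of 0.0128 by limma. Of the AP adaptor probes, grouped by name only, 0 of 6 tested were called, beside 22.6% of all tested probes. The AP means ran from -0.41 for AP1M1, the cargo-binding chain of the AP-1 adaptor, to 0.18 for AP1S2, a small AP-1 chain. At an unadjusted p under 0.05, 1 of the 6 passed. AP1M1 (arrays -0.62 and -0.19) was called lower at -0.79 with a background offset of 0 in place of 50. The other AP probes had means within that range, and AP2B1 could not be tested.

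COPII, the coat of export from the endoplasmic reticulum, had 1 called probe of 5, beside 22.6% of all tested probes. SEC24A, which picks cargo for that coat, was called from its probe at chr13:14648904-14648963, where control levels of 9.30 and 9.37 met DFM levels of 8.83 and 8.56 (1.56-fold lower, SE 0.137 on the log2 scale, adjusted p = 0.0126, limma). A second SEC24A probe (chr13:14658379-14660076) gave -0.12 and -0.11 and was not called (mean -0.12, SE 0.124), so the gene's probes differed in call. This second probe was dim, at 6.29 and 6.41 in the control and 6.16 and 6.30 with DFM. Its mean was -0.34 with a background offset of 0 and -0.63 in the scanner software's ratio. The called probe had -0.71 and -0.75 in these settings. The inner-coat gene SEC23B stayed near 0 on both arrays (-0.06 and 0.02), and SEC13L1, named SEC13 by RefSeq, an outer-coat gene, had 0.03 and 0.23 (mean 0.13). SEC23IP, grouped here by its name, had -0.56 and -0.17 (mean -0.36) and was not called. For the COPI coat, COPB (RefSeq COPB1) had ratios of -0.43 and -0.26 (mean -0.35, SE 0.127, adjusted p = 0.0829, limma) and COPE had a mean of -0.08; neither was called, and 1 of the 2 passed an unadjusted p under 0.05.

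The translocon and signal peptidase genes, which carry the SEC name but thread and trim new proteins at the endoplasmic reticulum, had 0 of 6 probes called (0 at an unadjusted p under 0.05) and a positive median of 0.21. With 22.6% of all tested probes called, a group of 6 cannot be set against that share. SEC61A2, a translocon pore subunit, had ratios of 0.15 and 0.42 (mean 0.28, SE 0.132). The probes of SEC63, a translocon partner, differed in sign, at 0.29 and -0.13, as did those of SEC11L1 (RefSeq SEC11A, the peptidase's catalytic subunit), at 0.29 and -0.18. The SEC63 probe at -0.13 had arrays of opposite sign (-0.42 and 0.16), as did the SEC11L1 probe at 0.29 (0.68 and -0.11). SEC14L1, which has a SEC name but encodes a lipid-binding protein of the SEC14 type (chr18:3915285-3915344), was lower with DFM: 8.15 and 8.13 in the control and 7.63 and 7.65 with DFM, 1.41-fold (adjusted p = 0.023, limma).

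Tethers, which catch vesicles before fusion, were mostly not called, but so were most tested probes of the array (22.6% called in all). Tether groups this small cannot be set against that share. In TRAPP, a tether of the early secretory pathway, 1 of 4 tested probes was called: TRAPPC2 (chr1:116217402-116217461) had 10.05 and 10.11 in the control and 9.73 and 9.43 with DFM, 1.41-fold lower (adjusted p = 0.0343, limma). TRAPPC3, a core subunit of the same complex, had ratios of 0.27 and 0.14 (mean 0.21, SE 0.126) and was not called. Also not called, but negative on both arrays, were TRAPPC4 (-0.27 and -0.41) and TRAPPC6B, which RefSeq names TRAPPC6A (-0.25 and -0.24). The exocyst, which tethers secretory vesicles at the plasma membrane, had 0 of 5 probes called, with 0 at an unadjusted p under 0.05, a median of 0.02 and means from -0.11 for EXOC5 to 0.12 for EXOC8. COG, a Golgi tether, had 0 of 2 called by limma (0 at an unadjusted p under 0.05), and VPS33A of the lysosomal tethers had -0.55 and -0.24 (mean -0.40, SE 0.135, adjusted p = 0.0665, limma). VPS13B and VPS13D, bridge-like lipid carriers that are no tethers, were not called from 4 tested probes, although all 4 were negative on both arrays. The VPS13B probe with a mean of -0.25 was called lower at -0.72 with a background offset of 0 and at -1.59 with the scanner software's ratio and the authors' table.

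SNARE genes, which drive the fusion itself, had 1 lower call among 4 tested syntaxin probes and 1 among 3 other tested SNARE probes. Of all tested probes 10.5% were lower, and groups this small cannot be set against that share. STX18, a syntaxin of retrograde traffic to the endoplasmic reticulum (chr4:78925861-78929381), had 7.73 and 7.49 in the control and 7.31 and 7.05 with DFM. Its ratios of -0.42 and -0.44 were nearly equal (mean -0.43, SE 0.124, 1.35-fold lower, adjusted p = 0.0393, limma). VAMP2, a vesicle SNARE of regulated secretion (chr9:8085591-8085650), read 8.81 and 8.72 in the control and 8.29 and 8.38 with DFM (1.35-fold lower, adjusted p = 0.0435, limma). Groups did not overlap for either gene. Its close relative VAMP3, of recycling endosomes, had -0.39 and -0.25 (mean -0.32, SE 0.127, adjusted p = 0.104, limma). STX6, which RefSeq names STX10, had 0.29 and 0.08, and SEC22A, grouped here by its name only, had 0.11 and 0.18. Both were positive on both arrays and not called. STX16 had -0.52 and -0.15 (mean -0.33) and STX2 had -0.27 and 0.04 (mean -0.11), and neither was called. SNAP25, the neuronal plasma membrane SNARE, was not well above background in any channel.

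**Figure D3:**
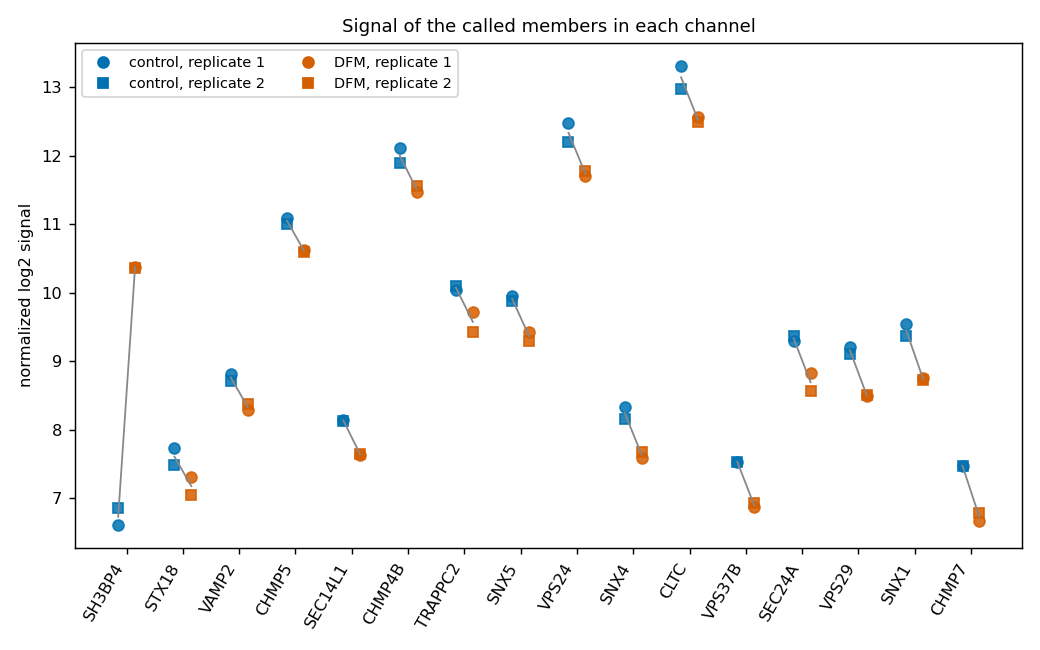
Normalised log2 signal (y axis) of the 16 called members in each of the 4 channels, control in blue and DFM in orange, with replicate 1 as circles and replicate 2 as squares and a line joining the group means. In the 15 lower genes both DFM points lie below both control points, while for SH3BP4 they lie above; heights are not comparable between genes.

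Without regard to calls, both DFM channel levels lay below both control levels in 29 of the 61 tested members (47.5%) and above them in 8 (13.1%). Over all tested probes these shares were 33.9% and 34.1%, and 22.6% of all tested probes were called. Between the arrays, the ratios of the 61 members had a Pearson r of 0.87 and a Spearman rho of 0.61, and 0.55 and 0.59 over the 60 without SH3BP4, so the high r rests on that gene. These values describe probes that share the same RNAs and slide. The median gap between a member's array ratios was 0.18 on the log2 scale, against 0.19 over all tested probes.

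**Figure D4:**
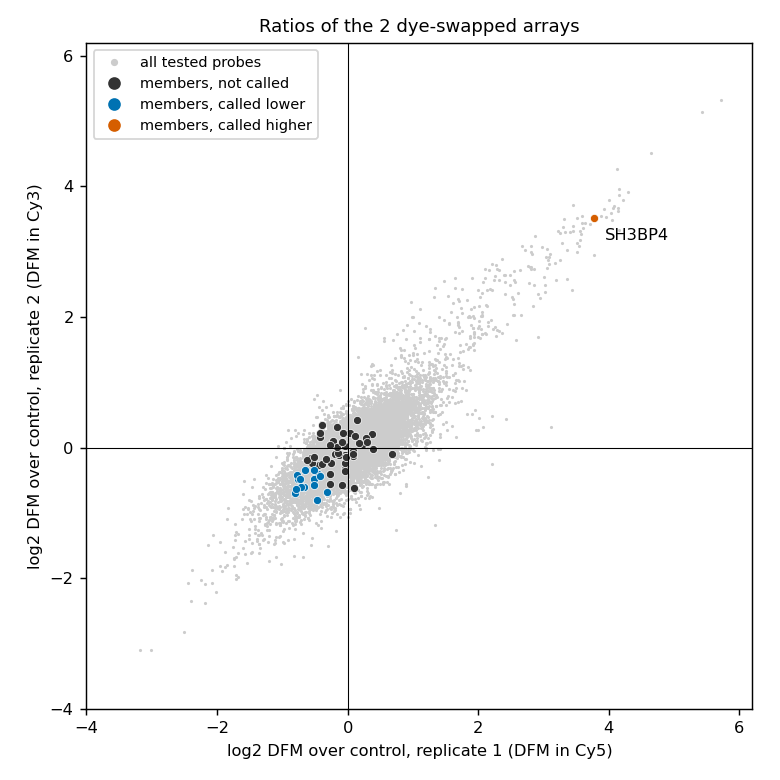
Log2 ratio of DFM over control on the array of replicate 1 (x axis) against that of replicate 2 (y axis) for all 18242 tested probes in grey and the 61 members in colour. SH3BP4, added with its ratio known, lies at 3.77 and 3.51, away from the other members. The 15 lower members lie below 0 on both axes.

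SH3BP4, added with its ratio known, stood apart from every other member, so its distance and rank were set by that choice and are only described. It encodes an adaptor that in human cells links transferrin receptor to clathrin-coated pits and that also restrains amino acid signalling through Rag GTPases. Its probe (chr7:5697920-5697979), which the array design names only by a locus number and RefSeq names SH3BP4, had levels of 6.61 and 6.85 in the control and 10.38 and 10.36 with DFM. The uncorrected mean spot signals were 80.8 and 147 in the control and 1783 and 952 with DFM. The ratios of 3.77 and 3.51 averaged 3.64 (SE 0.132, n = 2), a 12.5-fold higher signal, and ranked 20 of 18242 from the highest. Under the alternative background, normalisation, filter and probe choices the fold ran from 12.1 (median centring) to 31.1 (the scanner software's ratio). A second probe that RefSeq names SH3BP4, at chr7:5688339-5688398, was well above background in no channel, with raw signals from 54.1 to 65.2 and ratios of -0.18 and 0.23, so the value rests on 1 probe. TFRC, the transferrin receptor gene, was likewise not well above background in any channel.

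RefSeq symbols that match the member rule reached a further 79 probes of 70 genes, which the array lists under locus, clone or other gene names. The set was added after seeing the data. These 79 probes include the second SH3BP4 probe and SNAP91, neither of them tested. Of their 62 tested probes, 18 (29.0%) were called lower and 2 higher, beside 14.1% and 8.13% (22.2% in all) of all tested probes with a RefSeq symbol. Their median was also -0.14, and together with the members 33 of 123 were lower and 3 higher. Of the 11 tested nexin probes in this set, 6 were lower and 1 was higher. SNX9, which works with dynamin at clathrin-coated pits, had ratios of -0.57 and -0.87 (1.65-fold lower, adjusted p = 0.00732, limma). SNX27, which loads receptors onto retromer, had -0.59 and -0.80 (1.62-fold lower, adjusted p = 0.00694, limma). SNX17, a nexin that recycles integrins and lipoprotein receptors, SNX14, SNX7 and SNX12 were lower as well, with means of -0.64, -0.60, -0.54 and -0.47. SNX2, the other SNX1-type nexin, had -0.30 and -0.32 and was not called.

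In this further set the ESCRT-III genes CHMP1B and CHMP2B were lower, at -0.73 and -0.44, while CHMP1A and CHMP6 had positive means of 0.24 and 0.38 and were not called. The clathrin light chain genes CLTA and CLTB had ratios of -0.52 and -0.30 and of -0.30 and -0.15, negative on both arrays but not called (adjusted p = 0.0527 and 0.232, limma). Other lower genes were the AP-3 adaptor chain AP3D1 (-0.55), SEC24B of COPII (-0.48), the translocon partner SEC62 (-0.50), the endosomal syntaxin STX7 (-0.53) and the SNARE regulator VPS45 (-0.42). Tether genes lower there were TRAPPC12 (-0.57), VPS41 (-0.47), COG2 (-0.40), EXOC7 (-0.68) and VPS11 (-0.41). Second probes of EXOC7 and VPS11 had -0.06 and -0.03 and were not called.

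The 2 higher genes of this set belonged to the same endosomal recycling families as lower ones. VPS26B, a retromer subunit that has a paralogue in VPS26A, had 9.07 and 9.50 in the control and 10.73 and 10.37 with DFM. The ratios were 1.65 and 0.86, a mean of 1.26 (SE 0.183, n = 2), 2.39-fold higher at an adjusted p of 0.00246 by limma; the groups did not overlap, though the arrays differed in size. VPS26A had 0.10 and 0.07 and was not called. SNX21, a nexin of early endosomes, had 11.06 and 11.15 in the control and 11.66 and 11.82 with DFM, 1.55-fold higher (adjusted p = 0.00919, limma).

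**Figure D5:**
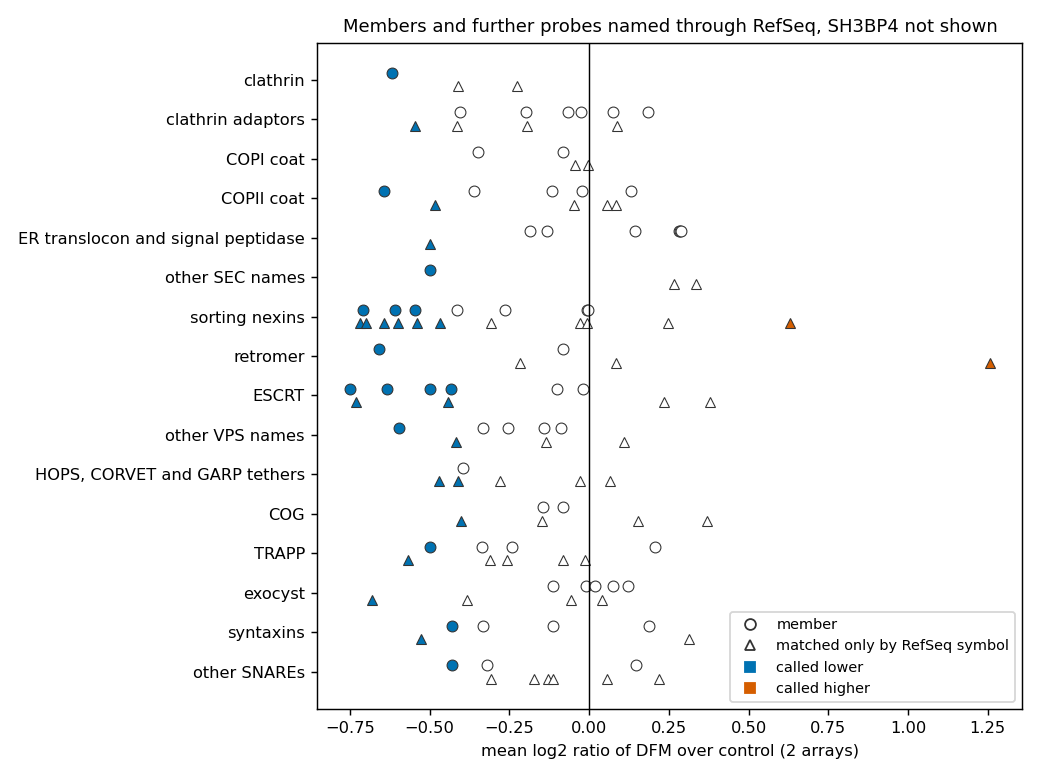
Mean log2 ratio of DFM over control over 2 arrays (x axis) by role for the members (circles, SH3BP4 not shown) and the probes matched only by RefSeq symbol (triangles), with lower calls in blue and higher calls in orange. Sorting nexins hold 3 lower of 7 tested members and 6 lower of 11 tested further probes, and the 2 orange points are SNX21 and VPS26B. Among all tested probes with a RefSeq symbol, 14.1% were lower.

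Other genes of coated vesicles, endosomal sorting and fusion, taken from a list of 118 names outside the member rule, were tested in the same fit. By array name, 38 of 52 probes were tested, 5 were lower and 2 higher, with a median of -0.07 and 10.5% and 12.1% of all probes lower and higher. With probes matched by RefSeq symbol included, 8 of 57 (14.0%) were lower and 3 (5.26%) higher, near the 14.1% and 8.13% of all tested probes with a RefSeq symbol. The 5 lower genes were MCFD2 (-0.76), the partner of a cargo receptor for export from the endoplasmic reticulum, the ESCRT-I gene TSG101 (-0.71), the membrane-curving endophilin SH3GLB1 (-0.65), the cargo adaptor TMED5 (-0.57) and TOLLIP (-0.49), an endosomal adaptor of ubiquitinated receptors. HGS, which encodes the ESCRT-0 subunit that receives cargo ahead of TSG101, was higher at 0.69 (11.92 and 11.98 in the control, 12.62 and 12.67 with DFM), from 1 of its 2 probes, the other not being tested. KDELR3, a receptor that returns proteins to the endoplasmic reticulum, was higher at 0.62, and its second probe at -0.07 was not called.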

How the data were processed

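Per the file headers, each array file is Agilent Feature Extraction output (header version 9.5.3.1; the submitters' processing notes give 10.7.3.1), with the deposited spot intensity in Cy5 and Cy3 and a log10 ratio that the software had background-subtracted and dye-normalised. The authors' series table holds log2 ratios that equal the software's ratio turned to DFM over control (r of 1 and -1 with Cy5 over Cy3 on the arrays of replicates 1 and 2, over 28763 and 28970 probes with a ratio other than 0); its column medians were -0.274 and 0.204.

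Each array held 43451 spots, 1417 of them controls. Of the 42034 probes, 21122 and 17331 were well above background for DFM and 16889 and 20465 for control on the arrays of replicates 1 and 2; 0 and 5 were flagged as outliers and 0 were saturated. The number of arrays limits the precision. Mean signals were corrected by normexp (offset 50) with the median local background and normalised by loess within each array in limma 3.58.1 (R 4.3.3), with controls at weight 0, and the dye-exchanged array was turned. Levels were taken per channel after Aquantile. Probes without an outlier flag were kept where at least 1 group was well above background in both replicates, and were tested with lmFit and eBayes against 0, two-sided, with Benjamini-Hochberg adjustment over all 18242. The test was checked on simulated data, drawn with the fitted prior variance and independent arrays. That check cannot speak to arrays that share RNA, nor to the calls lost under other normalisations. Symbols came from RefSeq for 10102 probes, and 31932 stayed unnamed. Accessions were matched first, then locus numbers, then design names equal to a RefSeq symbol or synonym. One member name, SEC15L2, had no match.

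The members, the gene lists and the naming rule were chosen with earlier results of these data known. That rule took SH3BP4, the 12 lowest called members, the highest and lowest probe of each role group of at least 3 tested probes, and probes of genes that differ in call or sign; other genes were named after their values were seen. The alternatives were other background, normalisation, filter and probe choices.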

Additional observations from a re-analysis of the deposited data

How the results depend on the processing

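All 15 lower members kept a negative mean under each alternative background, normalisation, filter and probe choice. SH3BP4, added with its ratio known, was called higher in each. The alternatives reprocess the same spots that gave these calls, so the kept signs and calls are no independent support. With median centring in place of loess, limma called 109 probes higher and 8 lower of all tested, 0 members lower, and 0 related genes higher and 0 lower (0 and 0 also at an unadjusted p under 0.05), with a member median of -0.17. The scanner software's ratio and the authors' table gave the same counts: 1179 probes higher and 951 lower of all, 3 members lower, and 0 related genes higher and 2 lower (2 and 10 at an unadjusted p under 0.05), with a member median of -0.33; SNX16 turned to 0.13. An offset of 0 gave a member median of -0.22 and kept 8 of the 15 calls, and no filter on dim probes gave -0.10. The single arrays gave medians from -0.19 to -0.15. Among alternatives chosen after seeing the data, leaving out SH3BP4 left 0 members higher by limma (0 also at an unadjusted p under 0.05), adding the probes matched by RefSeq symbol gave 3 higher and 33 lower, and the spike-in scaling gave 61 members higher and 0 lower, 38 related genes higher and 0 lower, and 18223 of all probes higher and 3 lower. The cause of these changes was not tested. The test used ratios within each array, which already set both RNAs against each other, so no further pairing was applied. With 2 arrays, leaving 1 out leaves a value with no test. Probes near background have compressed ratios, which the offset of 50 shrinks further.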
